A study of Caenorhabditis elegans with 6 samples.

Results

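Muscle contracts by sliding thick filaments of myosin along thin filaments of actin. The 8 genes described here encode core parts of both filaments in Caenorhabditis elegans: the myosin heavy chains unc-54 and myo-3, the thick filament core protein paramyosin (unc-15), the myosin light chains mlc-1, mlc-2 and mlc-3, tropomyosin (lev-11) and troponin C (pat-10). The rule that picked them uses names and gene identifiers only, and all 8 were found among the 5739 genes of the deposited table. In body wall muscle, myosin B, the product of unc-54, forms the greater part of the thick filament, and myosin A, the product of myo-3, lies at its centre. Tropomyosin and the troponins sit on actin and make contraction depend on calcium. These genes are used as marks of muscle and not of neurons, and here they were read from ribosomes that were pulled down through a tag made in neurons.

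The experiment compared worms carrying the deletion allele alg-2(ok304), which removes an Argonaute protein of the miRNA pathway, with wild-type worms. Each of the 2 groups had 3 libraries. All animals were at the L4 larval stage, were grown at 20 degrees C, and carried a single-copy insertion of tagged ribosomal protein RPL-18 under the pan-neuronal rgef-1 promoter, followed by a histone his-58::GFP reporter and the tbb-2 3′ end. Lysates were made from whole animals, the tagged ribosomes were captured on FLAG beads, and RNA eluted with them was sequenced after a low-input library preparation. The list of strains writes FLAG for the tag of the wild-type strain and HA for that of the alg-2(ok304) strain, and the headers of the alg-2(ok304) columns name an alg-1 knockout beside the number of the alg-2(ok304) strain. The labels of the libraries were followed.

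The values are called fitted reads. Within a group, the 3 columns stand in the same ratio for every gene, with library 2 at 1.17 and library 3 at 2.24 times library 1 in alg-2(ok304), and at 1.40 and 1.52 times in wild type. Each gene thus has 1 fitted level per group, spread over 3 libraries by a constant factor. No replicate error can be computed, no test was run, and every difference given here lacks a replicate check. The lowest sums above 0 over the 3 libraries were 0.853 fitted reads in alg-2(ok304) and 0.942 in wild type, so that the scale of the sums is close to single reads. Fitted reads totalled 4769250 to 10706566 per library in alg-2(ok304) and 11656552 to 17692391 in wild type, of which ribosomal RNA genes took 85.1% and 97.9%. The targeted gene alg-2 was listed at 11.1 fitted reads over the alg-2(ok304) libraries and 16.6 over the wild-type libraries, and rgef-1, whose promoter drives the tag, was not among the genes listed. rpl-18, whose product carries the tag, had 317 fitted reads in alg-2(ok304) and 66.9 in wild type. Reads outside the deleted stretch of alg-2 can still be counted, so that this value does not check the labels.

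Summed over the libraries of a group, the filament genes were above a few reads, though some not by far. The lowest sums were 20.3 for lev-11 and 24.9 for mlc-1 in alg-2(ok304), and 26.5 for myo-3 in wild type. All 8 had at least 10 fitted reads over the 3 libraries of each group, a level that 824 genes reached. Their sum was 1168 fitted reads in alg-2(ok304) and 800.1 in wild type. It made up 0.0435% (alg-2(ok304)) and 0.188% (wild type) of what lay outside the 6 ribosomal RNA genes and the 23 genes that overlap them or lie within 2 kb. Levels of different genes are compared below per kb of exon, using exon lengths of the WBcel235 assembly.

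Per kb of exon, pat-10 (WBGene00003934; chromosome I, 5018783 to 5020358), the calcium-binding subunit of troponin in body wall muscle, had the highest level of the 8 at 263 fitted reads per kb in alg-2(ok304) and 246 in wild type. It made up 33.2% and 38.3% of the per-kb sum of the 8 genes. Over all genes outside ribosomal RNA, its fitted reads ranked 221 of 5710 in alg-2(ok304) and 77 of 5710 in wild type, where mlc-3 ranked 71. The first place in wild type depended on the length used. pat-10 stood at 1.26 times mlc-3 there per kb of exon, but at 0.917 times by coding length and at 0.965 times with no length, while in alg-2(ok304) the ratio was 1.63, 1.18 and 1.247 under the same choices. Below pat-10, the order per kb of exon differed between the groups. In alg-2(ok304) it ran mlc-2 (239), mlc-3 (162), unc-15 (39.0), myo-3 (38.2), unc-54 (22.5), mlc-1 (21.5) and lev-11 (8.52 fitted reads per kb). In wild type it ran mlc-3 (195), mlc-2 (99.2), mlc-1 (53.6), lev-11 (18.2), unc-15 (14.7), unc-54 (10.3) and myo-3 (4.34 fitted reads per kb). The lower places depended on the length used as well. mlc-1 has 1155 exon bases but 510 coding bases, and lev-11 has 2383 but 852. By coding length mlc-1 stood above myo-3 and unc-54 in alg-2(ok304) too, and lev-11 was no longer below unc-54 there. Without a spread between libraries, neighbours in the orders per kb of exon, such as unc-15 and myo-3 in alg-2(ok304), cannot be told apart.

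**Figure D1:**
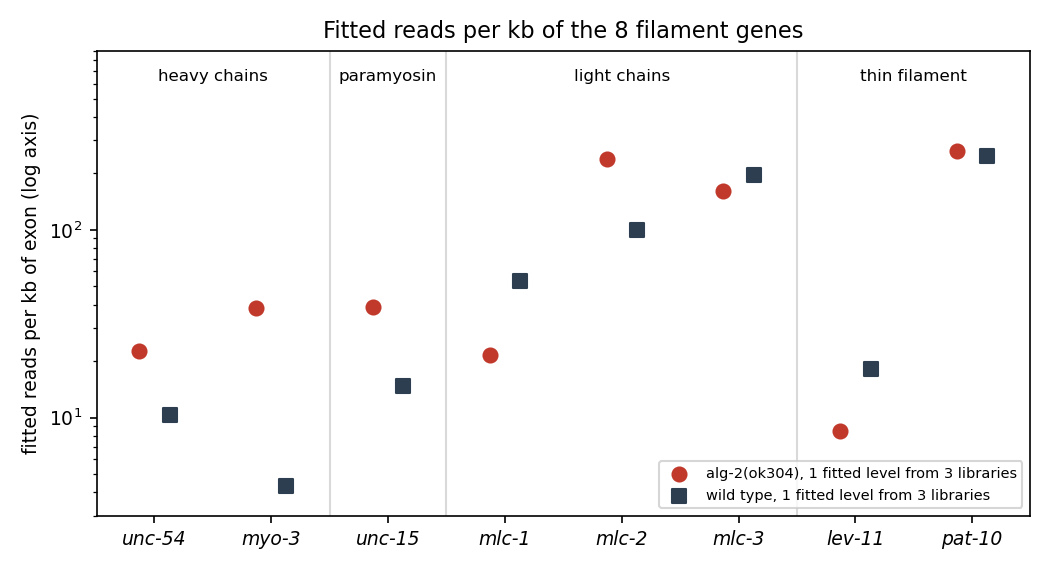
Fitted reads per kb of exon (vertical log axis) of the 8 genes, each with 1 fitted level for alg-2(ok304) (circles) and 1 for wild type (squares), summed over 3 libraries and not scaled to a common depth. By exon length pat-10 is highest in both groups, at 263 in alg-2(ok304) and 246 in wild type (in wild type mlc-3 is above it by coding length or with no length). Also by exon length, myo-3 and mlc-1 change places in the order, which they do not by coding length.

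The myosin heavy chains were compared first. unc-54 (WBGene00006789; chromosome I, 14855901 to 14863482), the major heavy chain of body wall muscle, had 31.7, 37.2 and 71.1 fitted reads in the alg-2(ok304) libraries, against 16.3, 22.7 and 24.7 in the wild-type libraries. myo-3 (WBGene00003515; chromosome V, 12226817 to 12234343), the minor heavy chain, which is essential for starting thick filaments, had 52.8, 61.9 and 118 fitted reads in the alg-2(ok304) libraries, against 6.77, 9.46 and 10.3 in the wild-type libraries. Over the libraries of a group, unc-54 summed to 140 in alg-2(ok304) and 63.8 in wild type, before any allowance for library size. The sums of myo-3 were 233 and 26.5. Since the columns of a group share 1 level, the values of a gene are no measure of replicate spread. The order of the pair turned between the groups. Per kb, myo-3 stood at 1.69 times unc-54 in alg-2(ok304) and at 0.423 times unc-54 in wild type, a difference of 4.01-fold in the ratio. Such a ratio of genes within a group does not depend on the depth of the libraries or on the scale chosen between the groups.

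Paramyosin was close to the heavy chains in level. unc-15 (WBGene00006754; chromosome I, 7376604 to 7383197) had 30.2, 35.4 and 67.8 fitted reads in the alg-2(ok304) libraries, against 12.9, 17.99 and 19.5 in the wild-type libraries. Per kb, it stood at 0.641 times the sum of unc-54 and myo-3 in alg-2(ok304) and at 1.01 times that sum in wild type.

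The light chains held most of the per-kb sum in both groups, 53.2% in alg-2(ok304) and 54.3% in wild type. mlc-1 (WBGene00003369; chromosome X, 17459210 to 17460778) and mlc-2 (WBGene00003370; chromosome X, 17455792 to 17456586) encode regulatory light chains and lie next to each other on opposite strands. mlc-1 had 5.63, 6.61 and 12.6 fitted reads in the alg-2(ok304) libraries, against 15.8, 22.1 and 24.01 in the wild-type libraries. mlc-2 had 34.6, 40.6 and 77.7 fitted reads in the alg-2(ok304) libraries, against 16.2, 22.7 and 24.7 in the wild-type libraries. Before any allowance for library size, the sum of mlc-1 was lower in alg-2(ok304), at 24.9 against 61.9 in wild type. That of mlc-2 was higher, at 153 against 63.6.

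The balance of these neighbours thus differed between the groups. Per kb, mlc-1 was at 0.0903 times mlc-2 in alg-2(ok304) and at 0.540 times mlc-2 in wild type, so that the ratio was 5.98-fold lower in alg-2(ok304). The genes are close copies whose reads can be shared or lost in counting, and 77 of the 641 exon bases of mlc-2 are also exon of C36E6.2 on the other strand, so the split between them is uncertain. Their sum, 178 fitted reads in alg-2(ok304) and 125.5 in wild type, is less open to such a split. mlc-3 (WBGene00003371; chromosome III, 5565025 to 5567382), the essential light chain of muscle, had 46.7, 54.8 and 105 fitted reads in the alg-2(ok304) libraries, against 63.8, 89.04 and 96.8 in the wild-type libraries. Its sum was 206 in alg-2(ok304) and 250 in wild type. Per kb, mlc-3 was at 0.621 times the sum of mlc-1 and mlc-2 in alg-2(ok304) and at 1.28 times that sum in wild type.

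On the thin filament, tropomyosin was the lower gene and troponin C the higher one. lev-11 (WBGene00002978; chromosome I, 14621169 to 14631094), with 20 annotated transcripts, had 4.59, 5.39 and 10.3 fitted reads in the alg-2(ok304) libraries, against 11.1, 15.5 and 16.9 in the wild-type libraries. Its sum was 20.3 in alg-2(ok304) and 43.5 in wild type, before any allowance for library size. pat-10 had 58.2, 68.4 and 131 fitted reads in the alg-2(ok304) libraries, against 61.5, 85.9 and 93.4 in the wild-type libraries. Per kb, lev-11 was at 0.0324 times pat-10 in alg-2(ok304) and at 0.0742 times pat-10 in wild type.

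When the genes were grouped by their place in the filaments, the heavy chains differed from the light chains between the groups. In a myosin molecule heavy and light chains are present in fixed proportion, and the ratio of their messages is given here as measured on ribosomes. Heavy chains (unc-54 and myo-3) reached 60.7 fitted reads per kb in alg-2(ok304) and 14.6 in wild type. Light chains (mlc-1, mlc-2 and mlc-3) reached 422 in alg-2(ok304) and 348 in wild type. The heavy to light ratio was thus 0.144 in alg-2(ok304) and 0.0420 in wild type, 3.43 times as high in alg-2(ok304). With mlc-1 and mlc-2 left out, heavy chains to mlc-3 alone were 5.02 times as high. By coding length the ratio itself was 0.0792 in alg-2(ok304) and 0.0194 in wild type, 4.08 times as high. The thick filament genes together, paramyosin included, were at 1.92 times the thin filament genes lev-11 and pat-10 in alg-2(ok304) and at 1.43 times in wild type. Actin was not part of this thin filament sum, and pat-10 made up 263 of its 271 fitted reads per kb in alg-2(ok304) and 246 of 264 in wild type. Light chains made up 422 of 521 and 348 of 378 of the thick filament sum. Without mlc-1 and mlc-2 the thick filament genes were at 0.963 times the thin filament genes in alg-2(ok304) and at 0.8504 times in wild type. The thick to thin ratio differed by 1.34-fold between the groups, against 4.05-fold for heavy chains to thin filament genes, and how far such differences exceed the error is not known from fitted values.

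**Figure D2:**
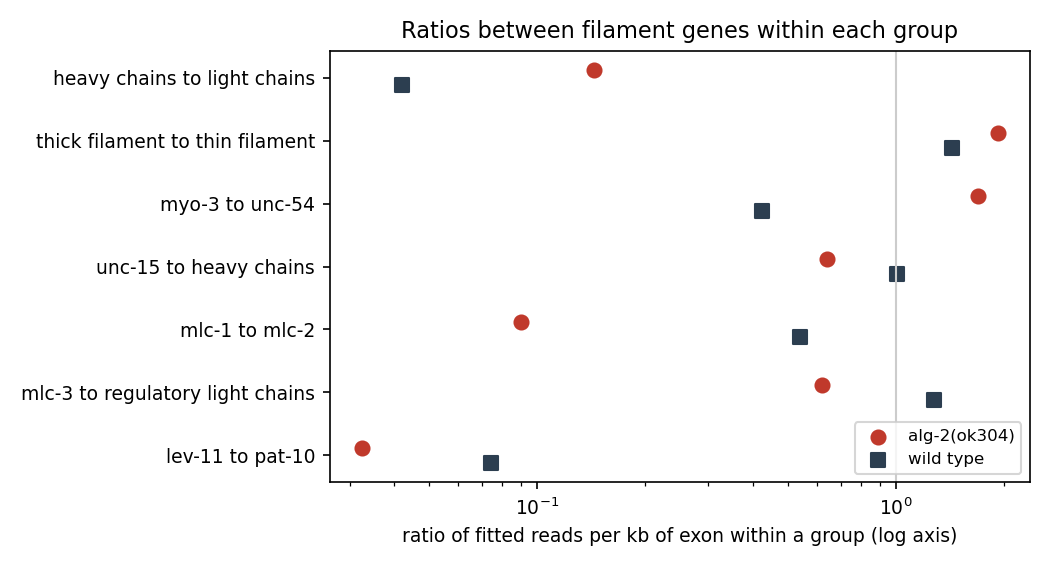
Ratios between filament genes or groups of them within alg-2(ok304) (circles) and within wild type (squares), from fitted reads per kb of exon, on a horizontal log axis with a line at 1. The heavy to light chain ratio is 0.144 in alg-2(ok304) and 0.0420 in wild type, and myo-3 to unc-54 lies on opposite sides of 1.

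To set single genes against each other between the groups, a scale is needed. The main scale took the median log2 ratio, alg-2(ok304) over wild type, of the 824 genes with at least 10 fitted reads in each group as no change, which lay at 1.42. On this scale, myo-3 had a log2 ratio of 1.71. unc-15 (-0.02), mlc-2 (-0.16) and unc-54 (-0.29) lay near the median gene. pat-10 (-1.33), mlc-3 (-1.70), lev-11 (-2.52) and mlc-1 (-2.74) were lower in alg-2(ok304). The median of the 8 log2 ratios was -0.81, beside 0 for all 824 genes by construction.

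Counted by a 2-fold difference in either direction, 4 of the 8 genes were lower in alg-2(ok304), where 28.9% of the 824 genes were, and 1 of 8 was higher, where 24.0% were. The filament genes were spread about as widely as all genes. The SD of their log2 ratios was 1.48 (8 genes) and that of all genes 1.49 (824 genes). Among the 28 pairs of filament genes, 22 (78.6%) differed by at least 2-fold in their ratio between the groups and 11 (39.3%) by at least 4-fold, beside 63.9% and 35.0% of all pairs of the 824 genes. The gap was widest, 21.9-fold, between myo-3 and mlc-1. myo-3 had a log2 ratio above that of 91.3% of the 824 genes, and mlc-1 above that of 5.95%.

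A direction between the groups held for a few of these genes only. The scales tried placed no change between -1.11, from totals that include ribosomal RNA, and 2.66, from totals without it and the genes around it. myo-3 was higher in alg-2(ok304) on all 6 scales, with log2 ratios from 0.48 to 4.25. mlc-1 was lower on all 6, with log2 ratios from -3.97 to -0.20, but its direction rests on the uncertain split of reads with mlc-2. The sum of mlc-1 and mlc-2 had a log2 ratio of -0.92 on the main scale and of 1.62 with the total of all genes. The other 6 genes were lower in alg-2(ok304) on 5 scales and higher with the total of all genes, where 7 of the 8 genes were higher. The 2-fold counts moved as well. They were 5 higher and 0 lower with the total of all genes, and 0 higher and 7 lower with the total outside ribosomal RNA and the genes around it.

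**Figure D3:**
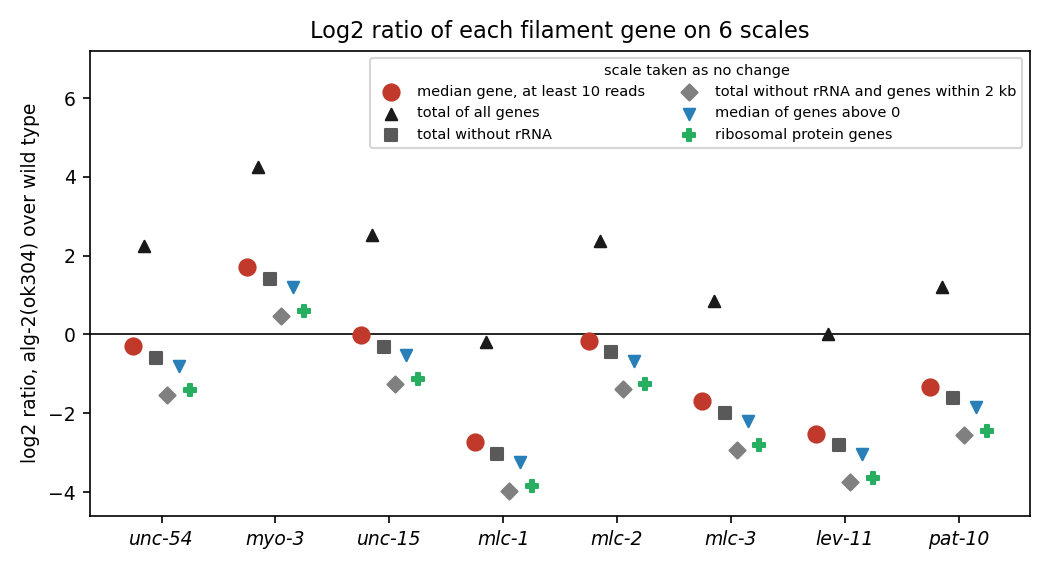
Log2 ratio, alg-2(ok304) over wild type, of each of the 8 genes (vertical axis) on 6 choices of the scale taken as no change, with large circles for the main scale. The distances between genes are the same on every scale, and myo-3 (0.48 to 4.25) and mlc-1 (-3.97 to -0.20) are the genes that stay on one side of 0, whereas the sum of mlc-1 and mlc-2 does not (-0.92 on the main scale, 1.62 with the total of all genes).

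The length of the messages differed among the members and was examined beside their ratios. The 3 genes with over 3 kb of exon (unc-54, myo-3 and unc-15) had a median log2 ratio of -0.02, and the 4 genes with under 1.5 kb (mlc-1, mlc-2, mlc-3 and pat-10) had a median of -1.51, with lev-11, at 2.38 kb, at -2.52. Across the 8 members the Spearman correlation of log2 ratio and length was 0.36, and the shortest member, mlc-2 at 0.641 kb, lay at -0.16. Other genes went slightly the other way. Those over 3 kb had a median of -0.20 (185 genes) and those under 1.5 kb a median of 0.27 (424 genes), and across 814 other genes with a known length the Spearman correlation of log2 ratio and length was -0.21. These are genes of the same libraries and not independent replicates. The part of length in the members' ratios was not tested.

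**Figure D4:**
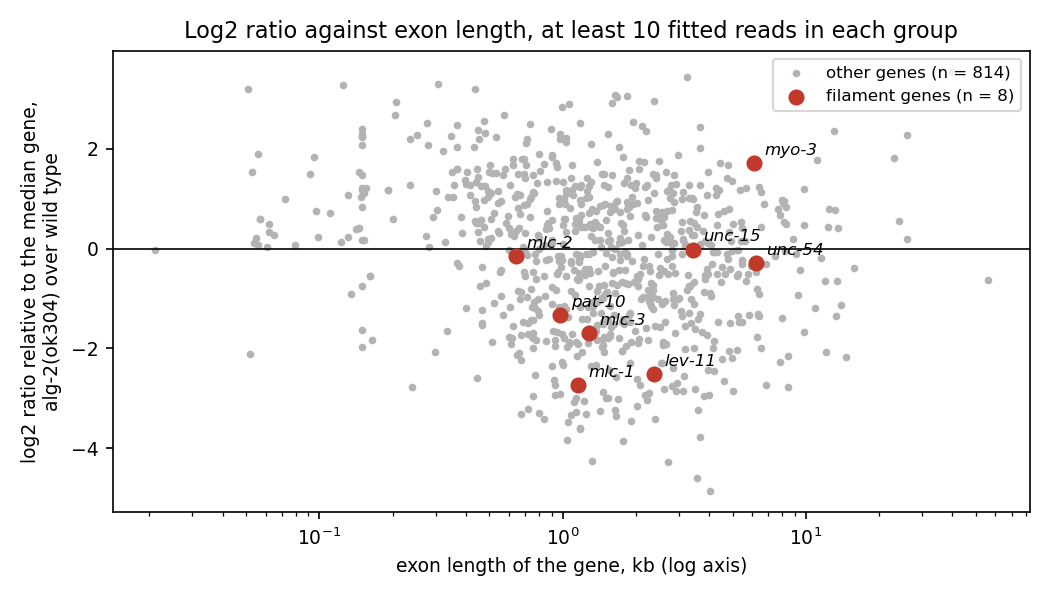
Log2 ratio, alg-2(ok304) over wild type, relative to the median gene (vertical axis) against exon length in kb (horizontal log axis) for 814 other genes (small points) and the 8 filament genes (large named points). The filament genes span from -2.74 (mlc-1) to 1.71 (myo-3), within the cloud of other genes.

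The partners of these proteins in the sarcomere were read from lists of 58 genes, of which 44 were listed. Of these, 18 had at least 10 fitted reads in each group, with 8 (44.4%) lower and 2 (11.1%) higher in alg-2(ok304) by at least 2-fold and a median log2 ratio of -0.92. Over all 824 genes, 28.9% were lower and 24.0% higher, with a median of 0. The floor of 10 fitted reads leaves out genes low in a group, so these shares hold for the 18 only. Of partner genes above 0 in both groups but under it, unc-22, unc-45, nmy-2, unc-87, cap-1, pat-2, unc-52, unc-68 and lev-8 were at least 2-fold higher (log2 ratios 1.27 to 3.03). At least 2-fold lower were unc-98 (-2.89) and unc-78 (-2.82). Over all 2659 genes above 0 in both groups, which include the 824, 39.0% were higher and 24.3% lower. The share over genes under the floor alone was not computed, so these partner genes have no matched share beside them. Of the 44, none was at 0 in alg-2(ok304) only, and 11 (25%) were at 0 in wild type only. Of the 4786 genes above 0 in either group, 6.16% were at 0 in alg-2(ok304) only and 38.3% in wild type only.

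Among other myosin chains, the pharyngeal heavy chain myo-2 had 17.6 fitted reads in alg-2(ok304) and 16.4 in wild type, a log2 ratio of -1.32. Its partner in the pharynx, myo-1, had 5.36 fitted reads in alg-2(ok304) and was listed at 0 in wild type. For myo-6 there were 155 fitted reads in alg-2(ok304) and 21.8 in wild type (log2 ratio 1.41), and for myo-5 there were 27.7 and 18.2 (log2 ratio -0.82). The non-muscle heavy chains nmy-1 and nmy-2, which serve cell shape and division, had 33.9 and 58.2 fitted reads in alg-2(ok304), against 23.6 and 9.03 in wild type. Their log2 ratios were -0.90 for nmy-1 and 1.27 for nmy-2. The non-muscle light chain mlc-5 had 3.02 fitted reads in alg-2(ok304) and was listed at 0 in wild type. Per kb, unc-54 exceeded myo-2 in both groups, at 22.5 and 2.78 in alg-2(ok304) and at 10.3 and 2.60 in wild type.

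The giant filament proteins were at high totals that follow in part from their length. ttn-1, which encodes a titin-like protein, had 5067 fitted reads in alg-2(ok304) and 2925 in wild type, or 90.4 and 52.2 per kb, a log2 ratio of -0.63. unc-89, an M-line protein related to obscurin, had 8.50 fitted reads per kb in alg-2(ok304) and 2.79 in wild type, a log2 ratio of 0.19.

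Actin, the backbone of the thin filament, gave 346 fitted reads per kb over act-1 to act-4 in alg-2(ok304) and 236 in wild type. act-4 was the highest, with 353 and 212 fitted reads, followed by act-1 (81.9 and 81.2), act-3 (65.7 and 54.7) and act-2 (23.2 and 5.64). The actin genes are near-identical copies whose reads may be shared or lost in counting. Of the 3 with at least 10 fitted reads in each group, act-1 and act-3 were lower in alg-2(ok304) by at least 2-fold and act-4 had a log2 ratio of -0.69.

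The troponin subunits had log2 ratios on both sides of 0. Troponin T, which ties the complex to tropomyosin, was led by tnt-3, with 491 fitted reads in alg-2(ok304) and 165 in wild type, a log2 ratio of 0.15. tnt-2 had 17.8 and 52.9 (log2 ratio -2.99) and tnt-4 had 99.7 and 117 (log2 ratio -1.66). mup-2 had 23.2 fitted reads in alg-2(ok304) and was listed at 0 in wild type. Among genes for troponin I, the inhibitory subunit, unc-27 had 60.6 fitted reads in alg-2(ok304) and 88.0 in wild type (log2 ratio -1.96), tni-1 had 23.98 and 20.6 (log2 ratio -1.20), and tni-3 had 95.5 and 11.5 (log2 ratio 1.64). The pharyngeal troponin C tnc-2 had 42.0 fitted reads in alg-2(ok304) and was listed at 0 in wild type, where pat-10 had 241.

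Genes of the attachment of filaments to the cell surface and of calcium handling were lower in level. unc-52, which encodes the perlecan of the basement membrane, had 67.7 fitted reads in alg-2(ok304) and 3.09 in wild type (log2 ratio 3.03). ketn-1, a kettin-like actin-binding protein, had 73.1 and 35.8 (log2 ratio -0.39). The ryanodine receptor unc-68 had 62.3 and 6.33 fitted reads (log2 ratio 1.88), and the calcium pump sca-1 had 61.4 and 44.1 (log2 ratio -0.94). Over these lists, 10 of 14 attachment genes and 4 of 11 excitation and calcium genes were listed.

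Since the ribosomes were tagged in neurons, the members were also set beside genes that mark cell types. Of 20 neuronal genes, 8 were listed, with 83.7 fitted reads in all in alg-2(ok304) and 11.7 in wild type, and 0 of them reached 10 fitted reads in each group. They ranged from 1.13 to 25.7 fitted reads in alg-2(ok304) and from 0 to 5.81 in wild type. Per kb, the neuronal genes summed to 39.5 in alg-2(ok304), above unc-54 at 22.5, and to 3.94 in wild type, below unc-54 at 10.3. The 8 filament genes summed per kb to 20.1 times the neuronal genes listed in alg-2(ok304) and to 163 times in wild type. The size of this gap depended on the use of length. With no length, the neuronal genes summed to 7.17% of the fitted reads of the filament genes in alg-2(ok304) and to 1.46% in wild type. Genes that were not listed were not analysed here. Markers of other tissues were present beside muscle. Of 10 hypodermal genes 8 were listed, at 1273 fitted reads in alg-2(ok304) and 582.5 in wild type, and of 10 intestinal genes 6 were listed, at 701 and 168. Single genes gave a large part of these sums. col-10 gave 886 and 164 and sqt-3 gave 79.7 and 283 of the hypodermal sums, with log2 ratios of 1.01 and -3.25. asp-1 gave 483 and 74.0 of the intestinal sums (log2 ratio 1.28). Germline genes were near 0, with 6 of 10 listed at 18.8 and 6.89 fitted reads in all. The 6 pharyngeal muscle genes included 4 that were listed, at 165 and 134. All 6 libraries were pulldowns from tagged strains, and no input or untagged library was among them. The part of these other tissues in the members' values was not tested, and the number of muscle cells and the amount of RNA per cell cannot be told apart in such samples.

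By the closeness of their log2 ratio to that of the summed members, -0.88, over the 2 groups, the nearest of 308 other genes with at least 50 fitted reads in each group were C17F4.7 (-0.88), R74.8 (-0.89) and gldr-2 (-0.89). With 1 fitted level per group, this likeness rests on 1 ratio for each gene.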

How the data were processed

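Polysome-bound RNA was measured in 3 alg-2(ok304) and 3 wild-type libraries. Per the methods and the submitters' processing notes, adapters were clipped by the authors (cutadapt 2.10), alignment to WBcel235 used HISAT2 2.2.0, and reads were counted on genes of an earlier Ensembl release with featureCounts (Subread 2.0.0) and fitted with edgeR 3.11. Strand use in the counting is not given in the sources used here. The methods give a filter on low CPM, but 953 listed genes are at 0 in all 6 columns. The deposited table's library columns hold fitted values, not read counts, so the planned count test was not run; depth and error are unknown. Its other columns hold the authors' average log2 CPM, p-value and FDR. The p-values and FDR were not used. The average was not used either, since it varied between -3.96 and 1.77 over those 953 genes.

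Each group's 3 columns were added up. Log2 ratios, alg-2(ok304) over wild type, had no pseudocount and were set relative to the median of genes with at least 10 fitted reads in each group. This step was run on simulated data in which genes changed equally often in both directions and the rest did not change. Such a run cannot show that the median is the right scale for these data. Gene positions and exon lengths were read from the WBcel235 annotation of Ensembl release 115, which holds 5733 of the 5739 genes. Genes named were the 8 members, alg-2, rpl-18 and rgef-1 as checks, and the 2 highest genes of each partner list. All actin, troponin and myosin chain genes above 0 and the 3 genes nearest to the members were named too. C36E6.2 was added for its overlap. Partner genes above 0 in both groups but under 10 fitted reads in either were added where they differed by at least 2-fold. The members and lists were chosen with earlier results of these data known. Python 3.11.15, numpy 2.4.6, pandas 2.3.3, scipy 1.17.1 and matplotlib 3.10.9 were used. Alternatives were other scales, pseudocounts, minimum levels and lengths, and leaving out mlc-1 and mlc-2.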

Additional observations from a re-analysis of the deposited data

How the results depend on the processing

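No paired analysis was possible because the columns of a group are proportional and hold no deviation of single libraries. For the same reason leaving out libraries, edgeR's quasi-likelihood test and DESeq2 were not run. The median log2 ratio of the 8 genes, -0.81, was 1.73 with the total of all genes, -1.10 without ribosomal RNA genes, -2.04 also without the genes within 2 kb, -1.31 with the median of all genes above 0 in both groups, -1.92 with ribosomal protein genes and -0.69 with a pseudocount of 5. With a pseudocount of 0.5 it was -0.81. With the total of all genes, unc-54 turned to 2.25, unc-15 to 2.52, mlc-2 to 2.38, mlc-3 to 0.84, lev-11 to 0.015 and pat-10 to 1.21, and with a pseudocount of 5 unc-15 turned to 0.043.

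The heavy to light chain ratio (0.144 in alg-2(ok304), 0.0420 in wild type) was 0.0792 and 0.0194 by coding length, 0.130 and 0.0362 by the longest transcript, 0.971 and 0.241 with no length, and 0.376 and 0.0748 without mlc-1 and mlc-2. As alg-2(ok304) over wild type, 3.43, it was then 4.08, 3.59, 4.03 and 5.02. Leaving out myo-3 was not among the alternatives. The thick to thin filament ratio (1.92 and 1.43) was 1.64 and 1.4996, 1.81 and 1.40, 3.21 and 1.81, and 0.963 and 0.8504 under the same choices. As alg-2(ok304) over wild type, 1.34, it was 1.09, 1.29, 1.77 and 1.13. The sum of mlc-1 and mlc-2, an alternative chosen after seeing the data like the lengths for pat-10 and mlc-3, turned to 1.62 with the total of all genes. The count of genes at least 2-fold higher in alg-2(ok304), 198 of 824, was 1038 of 2659 with all genes above 0 in both groups and 80 of 313 with at least 50 fitted reads. The count of lower genes, 238, was 646 and 86. The unknown depth and error limit every value here.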
